A study of Mus musculus with 123 samples.

Results

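The passage from morula to early inner cell mass (ICM) was followed in 16 mouse embryos without Sox2, 8 KO morulae and 8 KO early ICMs, taken by their labels from the 123 single-embryo RNA libraries of the series. The study asks what the transcription factors Oct4 and Sox2 do while the ICM is established. The question put to these 16 embryos is which part of the change between the stages takes place without Sox2. KO embryos were maternal-zygotic: a floxed maternal Sox2 allele was deleted in the oocyte by Cre driven from the Zp3 promoter, and the paternal allele was a null that carries an EGFP cassette and marks the embryo. Ctrl embryos of the same crosses had the same maternal deletion and 1 intact paternal allele, so they are maternal KO embryos rather than wild type. All were of the B6C3F1 strain, from superovulated females. Morulae were collected whole at E2.75 without inhibitor. Early ICMs, given as E3.75, came from embryos taken at E2.5 and grown in KSOM medium with 1 µM of the MEK inhibitor PD0325901 until the blastocyst formed, after which the outer trophectoderm (TE) was removed by immunosurgery. Stage, culture with the inhibitor and removal of outer cells therefore changed together in every comparison of ICM with morula and cannot be told apart. The 16 Sox2 Ctrl embryos of the same stages, the 16 late ICMs of both genotypes (E4.5) and the Oct4 line of the same design serve only for comparison. The late ICMs also had 1 µM PD0325901 from E2.5.

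Sox2 is an HMG-box factor that binds DNA next to the POU factor Oct4, the product of Pou5f1, at many enhancers of pluripotency genes. As the blastocyst forms, outer cells become TE, and inner cells later divide into epiblast, which gives rise to the embryo proper, and primitive endoderm, which lines the yolk sac. Sox2 is among the first genes whose product is restricted to the inner cells. MEK inhibition blocks the FGF signal that normally drives inner cells to primitive endoderm.

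The KO morulae held 901277 to 1205073 UMIs (unique molecular identifiers, each standing for 1 captured transcript) and the KO early ICMs 775085 to 1029244, with 12909 to 13715 and 12875 to 13667 genes detected. Levels are given as CPM, UMIs of a gene per 1000000 UMIs of the embryo, which for a library of 3′ ends needs no division by gene length. Each library is 1 embryo or 1 ICM, so in a change of level fewer cells of a type and less RNA per cell cannot be told apart. The 8 embryos of a group are separate embryos, and no pair of them in the 4 Sox2 groups compared here looked like one library deposited again. One KO early ICM, embryo 11, stood apart in TE markers: the summed level of 12 such genes was 2085 CPM there and at most 950 CPM in the other 7. List counts and calls of named genes that changed without it are given both ways.

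Sox2 itself (mm10, chromosome 3, 34650405 to 34652461, plus strand) was nearly absent from the KO morulae. It measured 1.88, 2.57, 1.11, 1.93, 3.32 and 1.73 CPM in KO morulae 2, 3, 4, 6, 9 and 19 and 0 in embryos 15 and 21, 14 UMIs in all. KO early ICMs 1, 2, 5, 8, 10, 11, 17 and 21 held 7.74, 36.4, 30.1, 34.4, 15, 22.6, 16.5 and 26.0 CPM, 176 UMIs in all. Every KO early ICM was thus above every KO morula, and the rise of 3.7 ± 0.51 (log2 scale with SE, adjusted p = 1.0e-09 by edgeR's quasi-likelihood test) came with pooled UMIs, scaled by the groups' total UMIs, 14.5 times those of the morulae (95% counting interval 8.44 to 27.2). Here and below, such intervals treat UMIs as independent and leave out the variation between embryos. Ctrl morulae held 2.91 to 34.2 CPM (median 12.4) and Ctrl early ICMs 72.6 to 194 CPM (median 94.0). KO and Ctrl early ICMs did not overlap, while the highest KO morula lay above the lowest Ctrl morula. The 3′ loxP site of the null alleles lies in the 3′ UTR, so part of the counted 3′ end is outside the deletion, and Sox2 lies inside the longer transcript Sox2ot on the same strand. The residual UMIs therefore do not measure functional Sox2 mRNA, and their source was not tested. Between KO and Ctrl morulae Sox2 was the single gene called of 14053 (0.00712%), with 618 genes at an unadjusted p under 0.05. The count was 0 with counts thinned to the lowest total or without Ctrl morula 14, and 2 without Ctrl morula 7. Between early ICMs of the genotypes 459 were called (3.27%).

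Pou5f1 (chromosome 17, 35506018 to 35510772, plus strand) ranged from 64.9 to 108 CPM in KO morulae (median 89.5) and from 40.1 to 73.8 CPM in KO early ICMs (median 47.6). The groups overlapped in range, and the difference of -0.74 ± 0.19 (log2, adjusted p = 0.00076) was under the 2-fold change required of a call. In Ctrl embryos the medians were 80.6 and 53.7 CPM and the difference was -0.53 ± 0.19.

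A gene was called when its adjusted p was under 0.05 and its level differed at least 2-fold. By this rule 4568 of the 14053 genes tested (32.5%) changed between KO morulae and KO early ICMs, 2414 of them higher in the ICM (17.2%) and 2154 lower (15.3%). In Ctrl embryos 4489 genes changed (31.9%), 2422 higher (17.2%) and 2067 lower (14.7%). Of these, 1721 genes rose and 1490 fell in both genotypes, which is 71.3% of the rises and 69.2% of the falls in KO embryos. A further 690 genes rose and 659 fell with a call in KO embryos alone, 696 rose and 574 fell with a call in Ctrl embryos alone, and 8 were called in opposite directions. A call in 1 genotype alone is no test of a difference between them. The test of the difference itself, the KO stage change minus the Ctrl stage change, called 124 genes (0.882%), 54 with a more positive change in KO embryos (0.384%) and 70 with a more negative one (0.498%). Which direction held more genes depended on the fit, with 44 and 82 under scaling by total UMIs alone and 92 and 81 from the 32 Sox2 embryos alone.

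**Figure D1:**
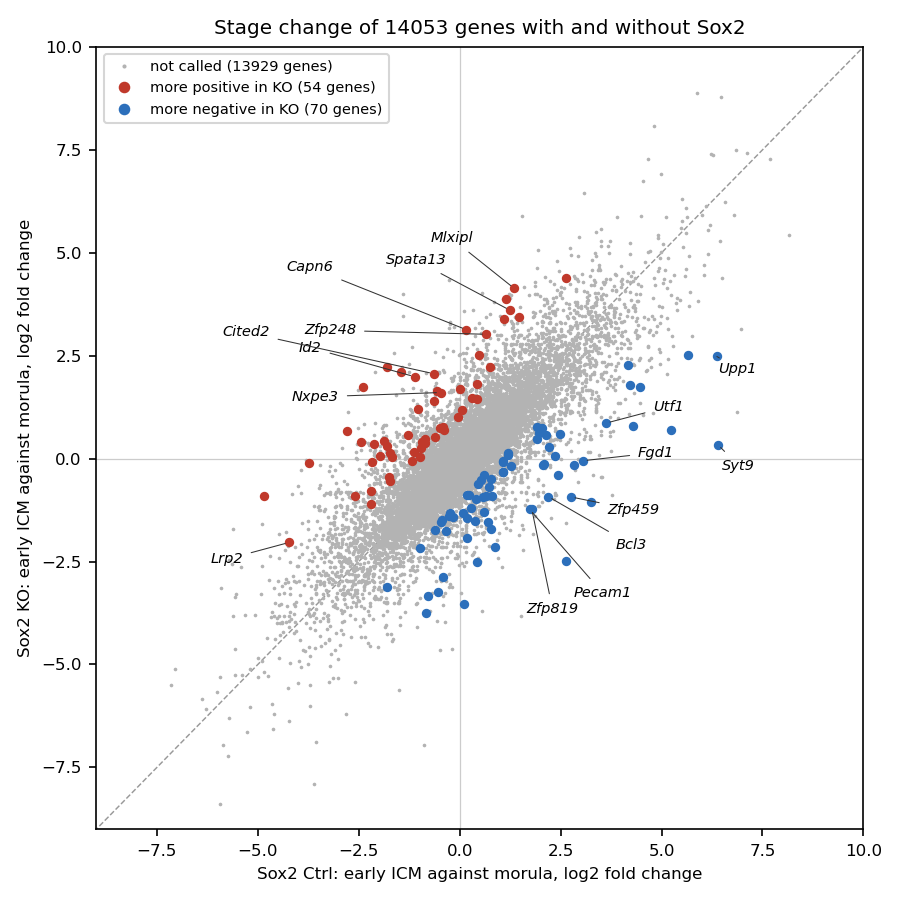
Log2 fold change from morula to early ICM in Ctrl embryos (x axis) and in KO embryos (y axis) for the 14053 genes tested, 8 embryos per group. Red points are the 54 genes whose change was more positive in KO embryos, blue points the 70 whose change was more negative, and grey points the other 13929, most of which lie along the diagonal.

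The extent of the passage was also read on a scale anchored in the Oct4 line's Ctrl embryos. On it, 0 is the mean of the Oct4 line's Ctrl morulae and 1 the mean of its Ctrl early ICMs, over the genes that changed between those 2 groups (1988 higher, 14.1%, and 2092 lower, 14.9%). The fit that called these genes held all embryos, and leaving out single Sox2 embryos moved their number between 4071 and 4084. The KO morulae stood at 0.0978 to 0.278 (median 0.147) and the KO early ICMs at 0.777 to 0.897 (median 0.850). Ctrl morulae stood at 0.0837 to 0.241 (median 0.157) and Ctrl early ICMs at 0.7001 to 0.970 (median 0.899). On this scale the KO early ICMs lay within the range of the Ctrl early ICMs, but only through Ctrl early ICM 2 at 0.7001, since the other 7 Ctrl early ICMs began at 0.835 and KO early ICMs 2, 5, 8 and 11 lay below them (0.787, 0.823, 0.792 and 0.777). KO morula 19 lay above every Ctrl morula, and no morula of either genotype overlapped an ICM. The late ICMs did not overlap in full: KO late ICMs lay at 0.797 to 0.906 and Ctrl late ICMs at 0.882 to 0.951. For comparison, early ICMs without Oct4 lay at 0.654 to 0.776, below the lowest KO early ICM of the Sox2 line, but morulae without Oct4 also lay lower, at -0.119 to 0.0927, so the end position does not measure the extent of the change. Of the 1988 genes that rose in the Oct4 line's Ctrl embryos, 1069 rose without Sox2 (53.8%) and 1141 rose in Sox2 Ctrl embryos (57.4%), with medians of 1.3 and 1.38 on the log2 scale. Of the 2092 that fell, 1016 fell without Sox2 (48.6%) and 1061 fell in Sox2 Ctrl embryos (50.7%), with medians of -1.17 and -1.195. Over all genes tested the medians were 0.01 in KO and 0.03 in Ctrl embryos.

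**Figure D2:**
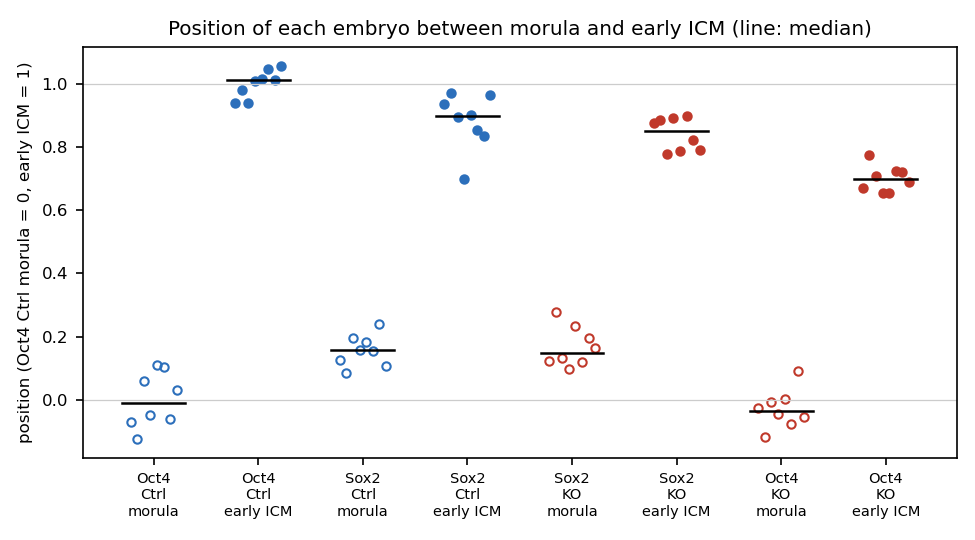
Position of each embryo on a scale where 0 is the mean Ctrl morula and 1 the mean Ctrl early ICM of the Oct4 line, 1 point per embryo and 8 embryos per group, with a line at each group's median. KO early ICMs of the Sox2 line sit between 0.777 and 0.897, inside the range of their Ctrl embryos (0.7001 to 0.970), whose second lowest embryo is at 0.835.

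The genes with the steepest rises without Sox2 were next examined, as the 10 highest fold changes among called genes that averaged 50 CPM or more in the higher stage and whose embryos did not overlap. Over all genes 9.63% had every KO early ICM above every KO morula and 10.7% had every one below. Glrx, a glutaredoxin that reduces protein disulfides, stood at 0 to 38.9 CPM in KO morulae (median 8.27) and at 806 to 1231 CPM in KO early ICMs (median 940.1). On the log2 scale it rose by 6.23 ± 0.35 (SE, adjusted p = 2.7e-28), and by 6.57 in Ctrl embryos. Pyy, which encodes the gut hormone peptide YY (chromosome 11, 102106676 to 102107832, minus strand), had no UMI in any KO morula and 11.9 to 195 CPM in KO early ICMs (median 38.1), at least 187-fold higher against a floor of 3 UMIs over the 8 morulae (adjusted p = 2.0e-07). In Ctrl early ICMs Pyy ranged from 0 to 36.4 CPM (median 1.68). Spp1, the secreted glycoprotein osteopontin, went from 0.830 to 8.68 CPM (median 1.00) to 78.3 to 222 CPM (median 177) in KO embryos, a change of 5.91 ± 0.94.

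Adh1, an alcohol dehydrogenase, was at 0 to 1.07 CPM in KO morulae (median 0) and at 20.3 to 644 CPM in KO early ICMs (median 88.3), a ratio of pooled and scaled UMIs of 687 with a counting interval of 189.7 to 5677 because the morulae held only 2 UMIs. Its highest value belonged to embryo 11, without which the ratio was 389 (107 to 3216). Obsl1, a cytoskeletal adaptor related to obscurin, had 1 UMI in all KO morulae and 33.2 to 112 CPM in KO early ICMs (median 63.1), a ratio of 590.1 (105 to 23354). Both were thus close to absent before and plainly present after in each KO embryo. The maternally expressed long noncoding RNA Meg3 (chromosome 12, within the imprinted Dlk1-Dio3 region) went from at most 5.78 CPM to 48.8 to 180 CPM, a change of 5.69. The T-box factor Tbx15 (5.86), the cortisol-inactivating enzyme Hsd11b2 (5.78), Ppp1r14d (5.59) and Cib2 (5.57) complete the 10. All 10 were called higher in Ctrl embryos as well, and none was called in the difference. That test was weak where morulae held few UMIs, with a standard error of 5.56 for Adh1 and 3.26 for Obsl1 and no usable one for Pyy. Between KO and Ctrl early ICMs 4 of the 10 were called, all higher without Sox2: Obsl1 by 3.30 ± 0.42 (adjusted p = 9.6e-09), Cib2 by 2.76 ± 0.43 (1.8e-06), Pyy by 3.01 ± 0.78 (0.0082) and Adh1 by 2.34 ± 0.69 (0.021). Without KO early ICM 11 the first 3 kept this call, and Adh1 lost it (1.51, adjusted p = 0.204). Hsd11b2 gained it by the same edgeR test (1.08, adjusted p = 0.018). In late ICMs Obsl1, Cib2, Pyy and Hsd11b2 were called higher without Sox2 (3.48, 2.64, 2.64 and 1.56) and Spp1 was called lower (-1.87).

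The 10 steepest falls, chosen by the mirror rule, were led by the forkhead factor Foxe1 (chromosome 4, 46343609 to 46346412, plus strand). It stood at 18.2 to 101 CPM in KO morulae (median 57.2) and at 0 to 1.29 CPM in KO early ICMs, where 3 UMIs remained in all. On the log2 scale it fell by 6.64 ± 0.57 (adjusted p = 3.7e-18), with pooled UMIs, scaled in the same way, 130-fold higher in the morulae than in the ICMs (counting interval 44.2 to 632). Alppl2, an alkaline phosphatase held on the cell surface, was the most abundant of them and fell from 1250 to 2818 CPM (median 2265) to 36.8 to 323 CPM (median 102), by 3.96 ± 0.46 in KO and by 4.23 in Ctrl embryos. Pdxk, the kinase that makes active vitamin B6, fell from 578 to 995 CPM (median 749.8) to 36.8 to 74.9 CPM (median 48.3). The homeobox gene Obox6 fell from 46.3 to 265 CPM (median 176) to 0.972 to 16.6 CPM (median 8.23). 

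Naalad2, a membrane peptidase, fell by 6.20 ± 0.38 in KO and by 4.60 in Ctrl embryos, and the nuclear body gene Sp110 fell by 5.30 in KO embryos. The other 4 were Tnfsf13b, the B cell cytokine BAFF (-5.96), Cthrc1 (-4.21), Tmem50b (-4.05) and Pdzd3 (-3.84). All 10 fell in Ctrl embryos too, and none was called in the difference. Naalad2 was lower in KO than in Ctrl early ICMs (-1.60 ± 0.45, adjusted p = 0.016) and Alppl2 higher in KO than in Ctrl late ICMs (2.62 ± 0.49, adjusted p = 2.9e-05). The 20 steepest changes kept their calls under each of the 41 other settings tried. Sp110, Obox6 and Alppl2 belong to families with near-identical copies, and Adh1, Cib2, Foxe1, Meg3, Naalad2, Pdxk, Sp110 and Spp1 share exon sequence with another annotated gene, so reads could have been split or shared among these.

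**Figure D3:**
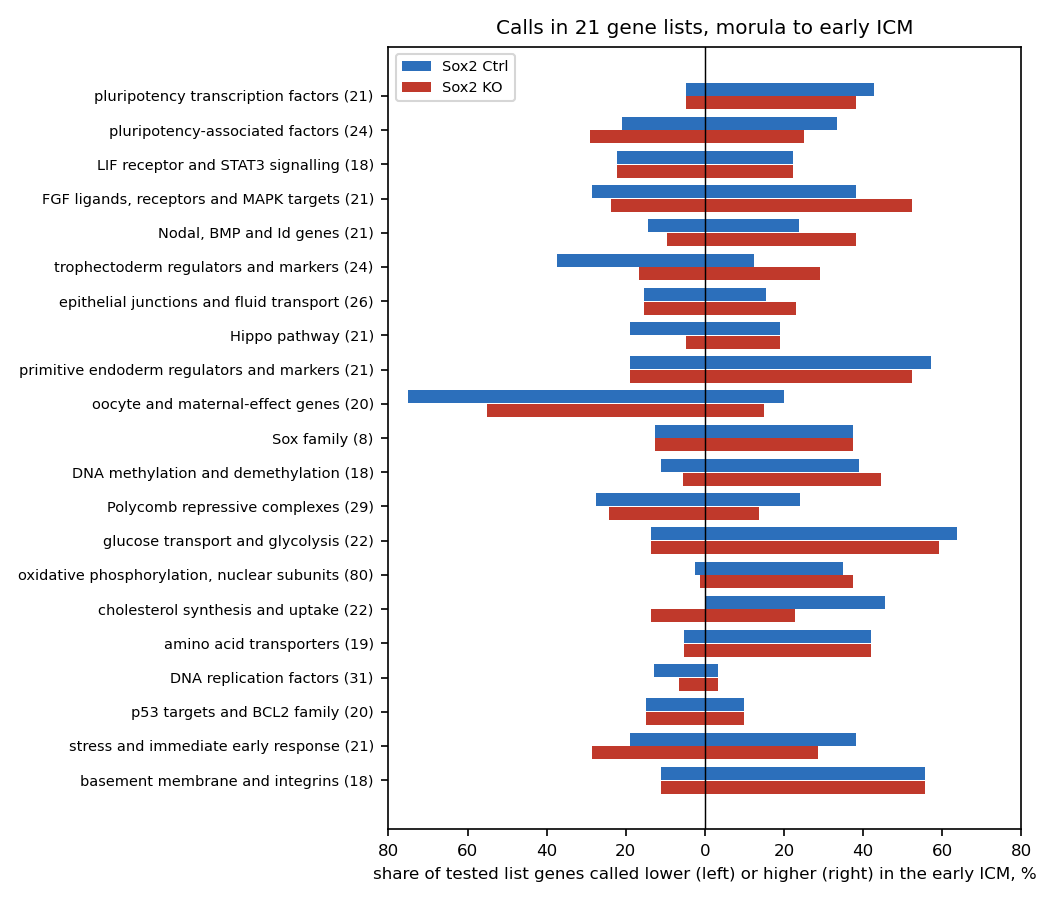
Percent of the tested genes of 21 lists called lower (bars to the left) or higher (bars to the right) in early ICM than in morula, Ctrl embryos in blue and KO embryos in red, 8 embryos per group. Glycolysis and primitive endoderm have similar bars in both genotypes, while the TE list has 7 genes higher and 4 lower in KO embryos against 3 and 9 in Ctrl embryos (5 and 3 in KO embryos without KO early ICM 11).

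Among 21 pluripotency transcription factors tested, 8 rose and 1 fell without Sox2, and 9 rose and 1 fell in Ctrl embryos (none fell without Ctrl morula 12, and 2 without Ctrl early ICM 11), against 17.2% and 15.3% of all genes in KO embryos. These shares, and 17.2% and 14.7% in Ctrl embryos, are the background for each list below. The median change was 0.68 in KO and 0.59 in Ctrl embryos on the log2 scale, and 6 factors rose in both. Nanog, a homeobox factor of the epiblast, stood at 173 to 429 CPM in KO morulae (median 302) and at 677 to 1010 CPM in KO early ICMs (median 790). All 8 ICMs lay above all 8 morulae, and the rise of 1.42 ± 0.24 (SE, adjusted p = 2.3e-07) was met by 1.32 in Ctrl embryos, a difference of 0.10 ± 0.33 (adjusted p = 0.95). Etv5, an ETS factor downstream of FGF signalling, rose from 6.01 to 16.0 CPM (median 12.2) to 49.4 to 179 CPM (median 117), by 3.38 on the log2 scale. The zinc finger factor Zfp281 rose from a median of 14.8 to 50.4 CPM and the cell cycle factor Mybl2 from 100 to 222 CPM. Klf4, a Krüppel-like factor, went from 111 to 222 CPM (median 164) to 228 to 406 CPM (median 365), a change of 1.08 ± 0.24 in KO and 0.57 in Ctrl embryos. Mycn, a proto-oncogene of the Myc family, rose from a median of 6.76 to 26.5 CPM in KO embryos (2.18, Ctrl 0.28). Tcf7l1, the repressive factor of the Wnt pathway, rose by 3.07 in KO and by 4.70 in Ctrl embryos. Esrrb (0.03), Zfp42 (0.47) and Tfcp2l1 (-0.49) were not called in KO embryos, and neither were they in Ctrl embryos (0.20, 0.68 and -0.03).

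Utf1, a chromatin-bound factor of undifferentiated cells (chromosome 7, 139943789 to 139945112, plus strand), was a pluripotency factor whose change depended on genotype by the test of the difference. In KO embryos it went from 28.3 to 79.9 CPM (median 52.6) to 51.0 to 138 CPM (median 111), overlapping and by less than 2-fold (0.86 ± 0.21). In Ctrl embryos it went from 24.5 to 54.3 CPM (median 37.7) to 293 to 719 CPM (median 535), a rise of 3.63 ± 0.22. No KO early ICM reached the lowest Ctrl early ICM, and the difference was -2.76 ± 0.30 (SE, adjusted p = 7.3e-11). The late ICMs, which shared the fit but were no part of that contrast, held 29.7 to 110 CPM without Sox2 (median 38.4) and 246 to 459 CPM in Ctrl embryos (median 402). Klf2, another Krüppel-like factor, was the other: it fell from a median of 117 to 47.8 CPM in KO embryos (-1.29 ± 0.25) and stood at 144 and 222 CPM in Ctrl embryos (0.59), a difference of -1.88 ± 0.34 (adjusted p = 0.00057).

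Of 24 further genes associated with pluripotency, 6 rose and 7 fell without Sox2, and 8 rose and 5 fell in Ctrl embryos, with medians of -0.12 and 0.04. Without KO early ICM 11, 6 fell in KO embryos. Over all genes 17.2% rose and 15.3% fell in KO embryos, and 17.2% and 14.7% in Ctrl embryos. Jam2, a junctional adhesion protein, rose from 2.13 to 16.4 CPM (median 7.76) to 125 to 208 CPM (median 178) in KO embryos, by 4.24. Dppa3, which protects maternal methylation marks, fell from 3394 to 4575 CPM (median 4088) to 1237 to 2129 CPM (median 1822), by 1.2 ± 0.17 without Sox2 and by 1.28 in Ctrl embryos. Lin28b, an inhibitor of let-7 processing, fell by 3.64 and 3.73, and the F-box gene Fbxo15 by 1.59 and 1.33. In these 4 genes no KO early ICM overlapped the KO morulae.

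In the same list 5 members differed between genotypes, each with a more negative change in KO embryos. Upp1, uridine phosphorylase, went from 1.07 to 8.68 CPM (median 2.60) to 3.25 to 42.7 CPM (median 16.3) in KO embryos and from 0.744 to 4.45 CPM (median 2.34) to 44.6 to 351 CPM (median 204) in Ctrl embryos. It rose in both, by 2.48 ± 0.52 and 6.37 ± 0.46, and the difference was -3.89 ± 0.87 (adjusted p = 0.0069), a call lost with counts thinned to the lowest total (-3.51, adjusted p = 0.0716). Sap30, a subunit of the Sin3 histone deacetylase complex, fell in KO embryos alone by the call, from 49.2 to 79.9 CPM (median 60.1) to 2.15 to 17.1 CPM (median 5.76), against 46.0 to 112 and 33.9 to 92.1 CPM in Ctrl embryos. The groups without Sox2 did not overlap, and the difference was -2.45 ± 0.37 (adjusted p = 7.7e-06). Gdf3, a ligand of the Nodal pathway, had medians of 12.5 and 13.9 CPM in KO and of 13.9 and 68.9 CPM in Ctrl embryos (difference -1.94 ± 0.45, adjusted p = 0.012, and 0.0692 with thinned counts). For Pecam1, an adhesion protein of ICM cells, the medians were 11.9 and 4.10 CPM in KO and 8.83 and 29.0 CPM in Ctrl embryos (difference -2.96 ± 0.64, adjusted p = 0.0046). Its fall within KO embryos (-1.23) lost its call when 1 of 7 embryos was left out (KO morula 2, 6, 15 or 21, or KO early ICM 8, 10 or 17; adjusted p = 0.0517 to 0.0699), whereas the difference did not.

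Fgf4, the FGF ligand made by epiblast precursors, went from 3.86 to 19.97 CPM (median 7.72) to 10.4 to 54.5 CPM (median 30.5) in KO embryos and from 4.85 to 14.3 CPM (median 10.3) to 70.6 to 563 CPM (median 129) in Ctrl embryos. It rose in both, by 1.78 ± 0.45 and 4.21, and no KO early ICM reached a Ctrl early ICM. The difference of -2.43 ± 0.63 (adjusted p = 0.029) lost its call without KO morula 2, 4 or 15 or Ctrl early ICM 10 or 11 (adjusted p = 0.0501 to 0.0964). Of 21 genes of the FGF and MAPK pathway 11 rose and 5 fell without Sox2, against 8 and 6 in Ctrl embryos, with medians of 1.05 and 0.44. Over all genes 17.2% rose and 15.3% fell in KO embryos. Feedback inhibitors of the pathway were called in both directions. Spry2 went from 24.1 to 42.3 CPM (median 33.0) to 214 to 358 CPM (median 308) in KO embryos (3.15 ± 0.20, Ctrl 2.51), and Dusp6 from a median of 8.53 to 84.8 CPM (3.21, Ctrl 3.33), while Dusp4 fell in both genotypes (-1.38, Ctrl -2.57). Among receptors Fgfr1 rose (1.85, Ctrl 1.67) and Fgfr3 fell (-4.56, Ctrl -3.44).

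**Figure D4:**
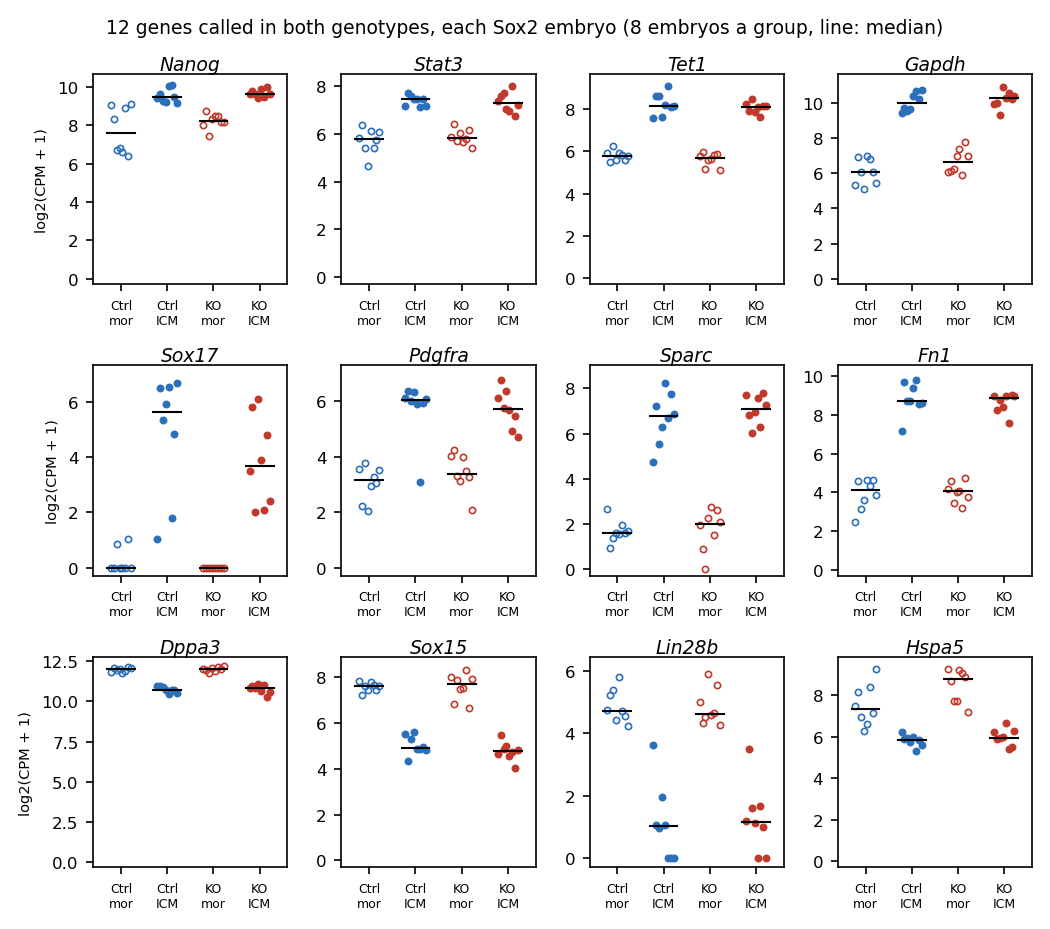
Level of 12 genes that were called in both genotypes, as log2(CPM + 1), 1 point per embryo with a line at the median of 8 embryos. Ctrl embryos are blue and KO embryos red, morulae open and early ICMs filled; Nanog, for example, has medians of 302 and 790 CPM in KO embryos, and Dppa3 medians of 4088 and 1822 CPM.

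Of 18 genes of the LIF and STAT3 pathway, which sustains naive pluripotency, 4 rose and 4 fell in each genotype, with medians of -0.31 and -0.15. These counts were not far above the 17.2% higher and 15.3% lower over all genes in KO embryos. Stat3 rose from 41.5 to 84.1 CPM (median 56.7) to 109 to 260 CPM (median 158) without Sox2, by 1.48 ± 0.17, and by 1.57 in Ctrl embryos. Socs3, an inhibitor that STAT3 induces, fell by 3.17 and 3.59. In this list 2 members differed between genotypes. Socs2, an inhibitor of cytokine receptors, fell from 18.9 to 67.1 CPM (median 35.4) to 5.37 to 15.4 CPM (median 9.70) in KO embryos and stood at medians of 43.3 and 49.1 CPM in Ctrl embryos (difference -2.09 ± 0.38, adjusted p = 0.00057). Il6st, the shared receptor gp130, had medians of 1.40 and 2.20 CPM in KO embryos and of 0.920 and 16.3 CPM in Ctrl embryos (difference -3.48 ± 0.87, adjusted p = 0.021). Without KO morula 6 or 15 this last difference was -3.25 or -3.28 and no longer called (adjusted p = 0.0612 and 0.0648).

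In the list of Nodal, BMP and Id genes 8 of 21 rose and 2 fell without Sox2, against 5 and 3 in Ctrl embryos. Over all genes 17.2% rose and 15.3% fell in KO embryos, and 17.2% and 14.7% in Ctrl embryos. The Id genes encode inhibitors of basic helix-loop-helix factors, and Id2 and Id3 differed between the genotypes in opposite directions. Id2 (chromosome 12, 25093799 to 25097140, minus strand) ranged from 77.8 to 377 CPM in KO morulae (median 134) and from 326 to 1121 CPM in KO early ICMs (median 689). It ranged from 46.9 to 305 CPM in Ctrl morulae (median 115) and from 16.5 to 123 CPM in Ctrl early ICMs (median 76.5), so that the early ICMs of the genotypes did not overlap. Id2 rose in KO embryos by 1.99 ± 0.50 (adjusted p = 0.00053), was not called in Ctrl embryos (-1.12 ± 0.52, adjusted p = 0.065), and differed by 3.11 ± 0.73 (adjusted p = 0.012). In late ICMs its medians were 653 CPM without Sox2 and 195 CPM in Ctrl embryos. Id3 moved the other way, from 90.8 to 313 CPM (median 172) to 43.7 to 125 CPM (median 66.2) in KO embryos and from a median of 149 to 248 CPM in Ctrl embryos (difference -1.90 ± 0.40, adjusted p = 0.0035). The medians of Bmp4, a BMP ligand, were 0 and 4.86 CPM in KO and 0 and 31.2 CPM in Ctrl embryos, and this difference was not called (adjusted p = 0.25).

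The primitive endoderm list had like counts of calls in both genotypes. Of 21 tested, 11 rose and 4 fell without Sox2, and these 15 were called the same way in Ctrl embryos, where 12 rose and 4 fell. The median changes were 1.81 and 2.19. Without KO early ICM 11, 3 fell in each genotype. Sox17, an endoderm factor of the Sox family, had no UMI in any KO morula and stood at 3.01 to 67.6 CPM in KO early ICMs (median 12.1) and at 1.038 to 104 CPM in Ctrl early ICMs (median 49.98). Pdgfra, a growth factor receptor of this lineage, rose from 3.20 to 18 CPM (median 9.48) to 24.9 to 108 CPM (median 51.7) in KO embryos, by 2.36 ± 0.46 (Ctrl 2.83). Gata6, an early factor of the lineage, ranged from 248 to 475 CPM in KO morulae and from 185 to 620 CPM in KO early ICMs, overlapped throughout, and was not called (0.27). The nuclear receptor Hnf4a rose by 2.73 and the apolipoprotein Apoe from a median of 12.8 to 348 CPM.

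The endocytic receptor Lrp2 differed within this list. It fell from 98.0 to 375 CPM (median 260) to 35.3 to 136 CPM (median 52.8) in KO embryos and from 124 to 359 CPM (median 217) to 3.80 to 28.1 CPM (median 9.03) in Ctrl embryos, so that every KO early ICM lay above every Ctrl early ICM. The falls were 2.04 and 4.22 in size and the difference was 2.19 ± 0.57 (adjusted p = 0.03). It lost its call without Ctrl morula 5, Ctrl early ICM 5, 9 or 11, or KO early ICM 17 (adjusted p = 0.0514 to 0.0807).

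Basement membrane genes had equal counts in the genotypes, with 10 of 18 higher and 2 lower in each genotype and medians of 1.55 and 1.49. In KO embryos 1 was lower without KO morula 6, and 9 were higher without KO early ICM 11. Sparc, a collagen-binding matrix protein, rose from 0 to 5.81 CPM (median 3.01) to 63.2 to 223 CPM (median 137) in KO embryos, by 5.49 ± 0.51 (Ctrl 5.61). Fn1, fibronectin, rose from 8.25 to 26.0 CPM (median 15.6) to 192 to 519 CPM (median 466.3), by 4.64 ± 0.28 (Ctrl 4.94). The collagen chain Col4a1 rose from a median of 25.8 to 183 CPM. In all of these the KO early ICMs lay above the KO morulae without overlap.

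In glycolysis 13 of 22 genes rose and 3 fell in KO embryos, all 16 called the same way in Ctrl embryos (14 and 3), with medians of 1.43 and 1.70. Without KO early ICM 11, 2 fell in KO embryos. Gapdh, a glycolytic dehydrogenase, rose from 58.7 to 216 CPM (median 100.03) to 634 to 1897 CPM (median 1210), by 3.44 ± 0.35 (Ctrl 3.83). Ldha, the dehydrogenase that makes lactate, rose by 3.64 (Ctrl 2.40) and pyruvate kinase Pkm by 1.9 (Ctrl 1.91), while hexokinase Hk1 fell by 2.30 (Ctrl 2.15). Of 80 subunits of oxidative phosphorylation 30 rose and 1 fell (Ctrl 28 and 2), 45 had every KO early ICM above every KO morula (9.63% over all genes), and the KO change was the higher one in 59 of the 80 with a median difference of 0.20 (6753 of the 14053 genes tested, with a median of -0.03), none of them called in the difference. Without KO early ICM 10, 2 fell, and without KO early ICM 11, 29 rose. Of 19 amino acid transporters 8 rose and 1 fell in each genotype, 6 of the rises being shared. In KO embryos 7 rose without KO early ICM 11. In Ctrl embryos leaving out single embryos gave 7 to 10 rises, and 2 fell without Ctrl morula 20 and 3 without Ctrl early ICM 11. Among the 19 were Slc38a4, which rose from a median of 26.5 to 234 CPM in KO embryos, and Slc6a14, which fell by 2.95.

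Of 22 genes of cholesterol synthesis and uptake 5 rose and 3 fell without Sox2, against 17.2% and 15.3% of all genes, and in Ctrl embryos 10 rose and none fell, against 17.2% and 14.7%. The medians were 0.22 and 0.81. The sterol-sensing factor Srebf2 rose in both (3.69 and 4.09). Fdft1, squalene synthase, fell from 62.7 to 176 CPM (median 134) to 12.6 to 84.2 CPM (median 50.6) in KO embryos, and the other 2 that fell were Lss and Msmo1 (-1.35 and -1.34). Their changes in Ctrl embryos were -0.44, -0.42 and -0.59, none of them called. The KO change was the lower one in 20 of the 22 genes, with a median difference of -0.46, but no gene of the list was called in the difference.

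Of 18 genes of DNA methylation 8 rose and 1 fell without Sox2 (Ctrl 7 and 2). Tet1, which oxidises methylcytosine, rose from 34.1 to 61.8 CPM (median 51.4) to 194 to 355 CPM (median 277), by 2.44 ± 0.17 (Ctrl 2.47). The maintenance methyltransferase Dnmt1 rose by 1.3 and its partner Uhrf1 by 2.11. Of 29 Polycomb genes 4 rose and 7 fell (Ctrl 7 and 8), where 17.2% and 15.3% of all genes did in KO embryos. Ezh2, the methyltransferase of the second Polycomb complex, fell from a median of 259.97 to 70.02 CPM without Sox2, by 1.82 (Ctrl 1.10, difference not called, adjusted p = 0.11), and Kdm2b fell by 1.97 (Ctrl 1.89). Epop, a regulator bound to the same complex as Ezh2, differed: its medians were 131 and 84.4 CPM in KO embryos and 91.9 and 182 CPM in Ctrl embryos (difference -1.41 ± 0.36, adjusted p = 0.023). Without Ctrl morula 12 or KO early ICM 5 that difference was -1.27 or -1.305 and no longer called (adjusted p = 0.0542 and 0.0503).

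In the list of 20 oocyte genes 3 rose and 11 fell without Sox2, and 4 rose and 15 fell in Ctrl embryos, with medians of -1.48 and -2.47. Leaving out single embryos gave 1 to 3 rises (1 without KO morula 3, 4 or 19) and 8 to 11 falls in KO embryos, and 2 to 4 rises (2 without Ctrl early ICM 9) and 15 falls in Ctrl embryos. Without KO early ICM 11, KO embryos had 2 rises and 10 falls. The summed level of 8 oocyte and polar body markers was nonetheless higher in every early ICM than in any morula of its genotype, at 739 to 1253 and 1609 to 2101 CPM in KO embryos (medians 1024 and 1831) and 645 to 1056 and 1431 to 2274 CPM in Ctrl embryos (medians 814 and 1935). Khdc3, a gene of the maternal subcortical complex, made up most of this sum, with medians of 974 and 1773 CPM in KO and 755 and 1890.5 CPM in Ctrl embryos (0.88 and 1.18), while 4 of the 8 fell without Sox2 and 5 fell in Ctrl embryos. Of 21 stress genes 6 rose and 6 fell (Ctrl 8 and 4), and 5 fell in KO embryos without KO early ICM 11. Over all genes 17.2% rose and 15.3% fell in KO embryos. The chaperone of the endoplasmic reticulum Hspa5 fell from 146 to 608 CPM (median 446) to 41.9 to 98.4 CPM (median 61.0), by 2.65 (Ctrl 2.13), and the heat shock gene Hspa1b by 3.76 (Ctrl 3.6). Of 31 DNA replication genes 1 rose, Gins2 (2.74, Ctrl 2.65), and 2 fell, Gmnn (-1.50, Ctrl -1.77) and Gins3, which at -1.02 stood so near the 2-fold limit that leaving out single embryos often ended its call. Both counts were smaller shares than over all genes. Cdc6, which loads the replicative helicase, had medians of 62.1 and 39.8 CPM in KO and of 66.9 and 20.8 CPM in Ctrl embryos and differed by 1.19 ± 0.30 (adjusted p = 0.023). Without KO early ICM 10 the difference was 1.10 (adjusted p = 0.0509). Among 20 genes of p53 and BCL2 signalling 2 rose and 3 fell in each genotype (1 rose in Ctrl embryos without Ctrl early ICM 2). In KO embryos neither count was a larger share than the 17.2% and 15.3% over all genes. In the Sox family itself Sox15 fell from 99.5 to 323 CPM (median 210) to 15.5 to 43.7 CPM (median 26.4) and Sox21 rose from a median of 17.9 to 53.9 CPM in KO embryos, and both were called the same way in Ctrl embryos.

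The TE list had unlike counts in the genotypes. Of 24 genes 7 rose and 4 fell without Sox2, and 3 rose and 9 fell in Ctrl embryos, with medians of 0.18 and -0.88. Over all genes 17.2% rose and 15.3% fell in KO embryos, and 17.2% and 14.7% in Ctrl embryos. The KO falls and Ctrl rises of the list were near these shares. The KO change was the higher one in 20 of the 24, with a median difference of 1.24 against -0.03 over all genes. Without KO early ICM 11, 5 rose and 3 fell in KO embryos, the KO median was 0.02, and the KO change was the higher one in 20 of the 24 with a median difference of 1.10. Gata3, a TE factor, ranged from 124 to 244 CPM in KO morulae (median 159) and from 102 to 296 CPM in KO early ICMs (median 177), overlapping and not called. In Ctrl embryos it fell from 92.6 to 179 CPM (median 143) to 21 to 62.0 CPM (median 45.0), so no Ctrl early ICM reached a KO early ICM. The difference was 1.87 ± 0.47 (adjusted p = 0.02). Cdx2, the homeobox factor that defines the TE, fell in both genotypes, from 39.8 to 58.3 CPM (median 43.0) to 5.93 to 25.8 CPM (median 16.2) in KO embryos (-1.48 ± 0.34, Ctrl -2.82), and was not called in the difference (1.34, adjusted p = 0.25). Tfap2c fell by 2.04 and Hand1 by 2.74 without Sox2, both factors of the trophoblast lineage. The keratin Krt8 rose by 1.10 in KO embryos with embryo 11 and stood at 0.78 without it, no longer called (adjusted p = 0.128).

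A gene of cell junctions and a TE receptor differed as well. Dsp, desmoplakin of the desmosome, rose from 18.9 to 59.8 CPM (median 40.4) to 147 to 275 CPM (median 251) in KO embryos and stood at medians of 37.1 and 54.5 CPM in Ctrl embryos. Its difference of 2.04 ± 0.46 (adjusted p = 0.0069) kept its call whichever embryo was left out. Fgfr2, the FGF receptor of the TE, had medians of 104 and 139 CPM in KO and of 91.5 and 59.5 CPM in Ctrl embryos, a difference of 1.25 ± 0.34 (adjusted p = 0.035). It lost its call when 1 of 7 embryos was left out (Ctrl morula 7, KO morula 6 or 15, Ctrl early ICM 5, 10 or 11, or KO early ICM 1; adjusted p = 0.0505 to 0.0696). Of 26 junction and transport genes 6 rose and 4 fell without Sox2 (Ctrl 4 and 4), and of 21 Hippo pathway genes 4 rose and 1 fell (Ctrl 4 and 4). The rises in both lists were near the 17.2% called higher over all genes.

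How many outer cells remained after immunosurgery is not known. The summed level of 12 TE markers was 595 to 1148 CPM in KO morulae (median 791) and 485 to 2085 CPM in KO early ICMs (median 753), and 525 to 972 CPM in Ctrl morulae (median 616) and 117 to 512 CPM in Ctrl early ICMs (median 373). Of these 12, 4 rose and 2 fell without Sox2 (2 and 2 without KO early ICM 11), and 1 rose and 6 fell in Ctrl embryos. The summed level of 12 markers of ICM and epiblast rose from 1133 to 1436 CPM to 1612 to 2129 CPM in KO embryos and from 983 to 1602 CPM to 1983 to 4485 CPM in Ctrl embryos. The 8 primitive endoderm markers, 6 of them detected often enough to be tested, summed to 32.2 to 73.3 and 178 to 464 CPM in KO embryos, with Foxa2 at 0 in all 16, and 30.6 to 61.2 and 160.02 to 567.5 CPM in Ctrl embryos. In KO embryos the summed TE markers thus overlapped between the stages, while the other sums were higher in every early ICM than in any morula. The part of remaining TE cells in the changes above was not tested.

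The genes that differed most between the genotypes were then named by rule, as the 8 highest and 8 lowest differences among the 91 called genes with at least 20 CPM in some Sox2 group. Besides Id2 and Lrp2, the 8 with a more positive change in KO embryos were Capn6, Mlxipl, Cited2, Zfp248, Spata13 and Nxpe3. Cited2, a co-activator that binds CBP and p300 (chromosome 10, 17723218 to 17725674, plus strand), ranged from 13.7 to 80.9 CPM in KO morulae (median 35.4) and from 54.1 to 310 CPM in KO early ICMs (median 149). In Ctrl embryos it ranged from 15.5 to 109 CPM (median 50.5) and from 4.15 to 64.9 CPM (median 31.6). All KO early ICMs but embryo 2 lay above every Ctrl early ICM, and the difference was 2.71 ± 0.63 (adjusted p = 0.012).

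Mlxipl, the carbohydrate response factor ChREBP, rose from 0 to 5.78 CPM (median 2.23) to 24.5 to 79.5 CPM (median 33.5) in KO embryos and stood at medians of 3.24 and 7.75 CPM in Ctrl embryos (difference 2.79 ± 0.67, adjusted p = 0.017). Zfp248, a zinc finger gene, rose from a median of 4.93 to 38.8 CPM in KO embryos and stood at 3.51 and 8.95 CPM in Ctrl embryos (difference 2.36 ± 0.55, adjusted p = 0.011). Spata13, a guanine nucleotide exchange factor, rose from a median of 2.90 to 29.1 CPM in KO embryos, against 3.85 and 12.1 CPM (difference 2.36 ± 0.55, adjusted p = 0.013). In these 3 genes the early ICM without Sox2 had the highest median of the 4 groups. Capn6, a calpain-like gene, rose from 7.59 to 101 CPM in KO embryos, against 8.57 and 15.3 CPM (difference 2.96 ± 0.75, adjusted p = 0.023). Nxpe3 had medians of 9.40 and 26.8 CPM in KO and of 8.92 and 7.18 CPM in Ctrl embryos (difference 2.08 ± 0.50, adjusted p = 0.015). Of these 6 calls, 3 rested on 1 Ctrl morula each: without Ctrl morula 14 the difference was 2.37 for Capn6 (adjusted p = 0.145), without 17 it was 2.48 for Mlxipl (0.0637), and without 20 it was 1.93 for Spata13 (0.0784).

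Besides Utf1, Upp1 and Pecam1, the 8 with a more negative change in KO embryos were Syt9, Zfp459, Bcl3, Fgd1 and Zfp819. Fgd1, an exchange factor for the GTPase Cdc42, ranged from 2.49 to 9.59 CPM in KO morulae (median 4.97) and from 1.042 to 7.74 CPM in KO early ICMs (median 5.64), against 3.08 to 8.34 CPM (median 5.84) and 22.8 to 93.5 CPM (median 48.2) in Ctrl embryos. The KO groups overlapped and no KO early ICM reached a Ctrl early ICM (difference -3.11 ± 0.58, adjusted p = 0.00058). Bcl3, a nuclear partner of NF-κB, had medians of 5.15 and 1.49 CPM in KO and of 5.03 and 17.6 CPM in Ctrl embryos (difference -3.11 ± 0.68, adjusted p = 0.005, and 0.127 with thinned counts). The zinc finger genes Zfp459 and Zfp819 had medians of 1.24 and 2.96 CPM in KO early ICMs and of 20.4 and 16.4 CPM in Ctrl early ICMs (differences -3.69 ± 0.67 and -3.0 ± 0.53, adjusted p = 0.00057 and 0.00036). Syt9, a synaptotagmin of vesicle fusion, had 8 UMIs in KO morulae and 9 in KO early ICMs, and 1 and 158 in Ctrl embryos (difference -6.05 ± 1.23, adjusted p = 0.0022). This last call was lost without KO morula 19, which held 5 of the 8 UMIs of its group (-5.05, adjusted p = 0.102).

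**Figure D5:**
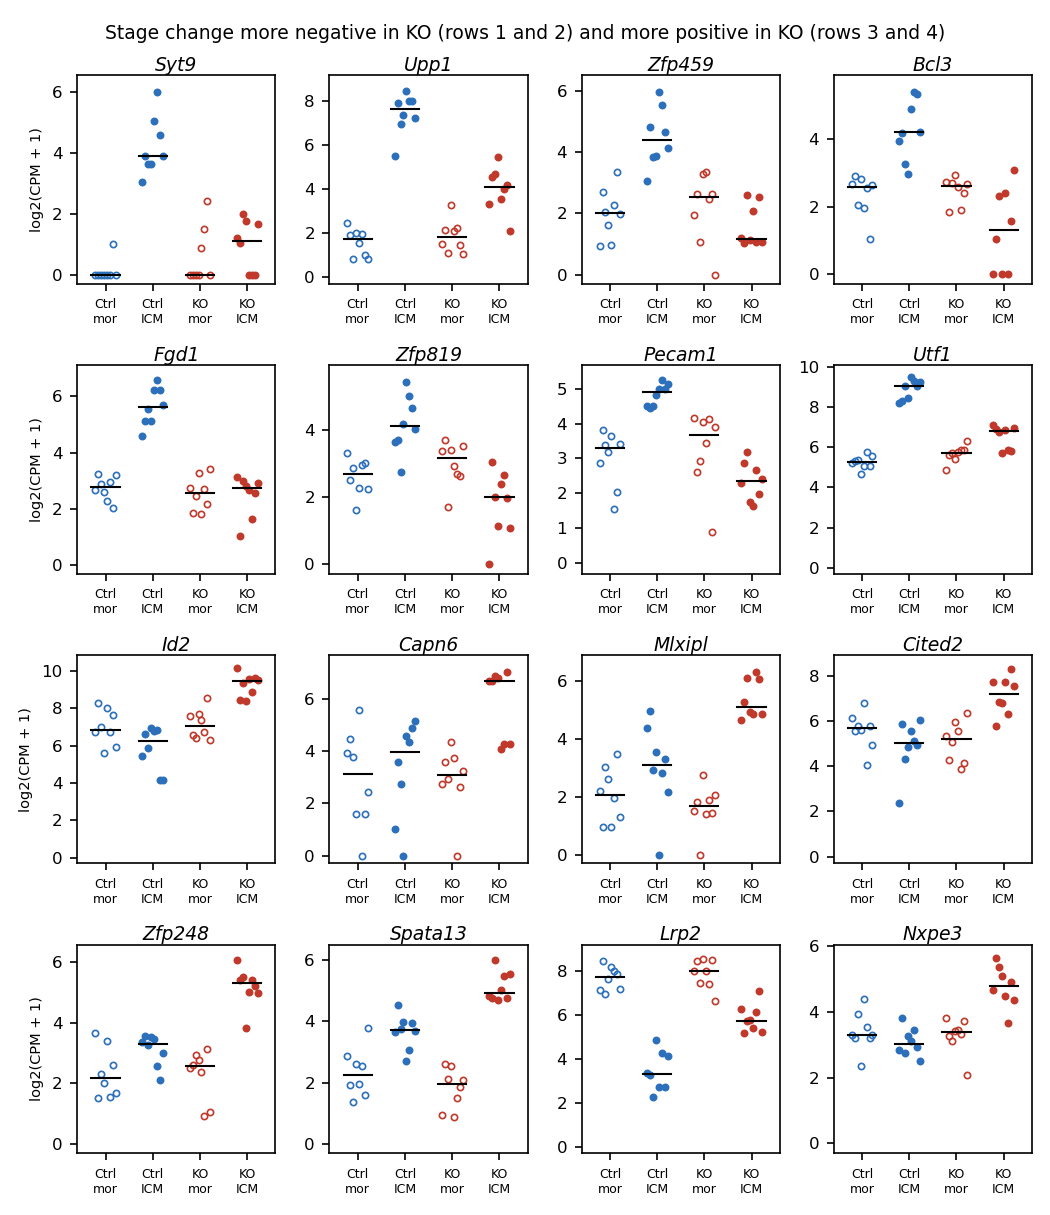
Level of the 16 genes named for the difference in stage change, as log2(CPM + 1), 1 point per embryo with a line at the median of 8 embryos, Ctrl in blue and KO in red, morulae open and early ICMs filled. The upper 8 changed more negatively in KO embryos (Utf1 medians 52.6 and 111 CPM in KO, 37.7 and 535 CPM in Ctrl embryos) and the lower 8 more positively (Id2 medians 134 and 689 CPM in KO, 115 and 76.5 CPM in Ctrl embryos).

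The late ICMs gave a reading of the same genes in other embryos, where 6.95% of all genes tested were called between the genotypes, 3.34% higher without Sox2 and 3.61% lower (469 and 508 genes, or 379 and 628 with scaling by total UMIs alone). Of the 70 genes with a more negative change in KO embryos, 49 were called lower in KO than in Ctrl late ICMs (70%), none was called higher, and the median was -1.81. Of the 54 with a more positive change, 28 were called higher in KO late ICMs (51.9%), none lower, with a median of 1.28. Utf1, Fgd1, Syt9, Sap30 and Klf2 were among the former, and Id2, Gata3, Cited2, Dsp and Capn6 among the latter. In the Oct4 line, where the same difference called 3.29% of genes, 1.57% higher and 1.72% lower, 20 of the 70 were called in the same direction (28.6%), among them Utf1, Upp1, Sap30, Socs2, Klf2, Id3, Fgf4, Pecam1, Bcl3 and Fgd1. Of the 54, 9 were called the same way (16.7%), among them Gata3 and Lrp2, and no gene of either group was called the opposite way. A call in the Sox2 line alone is no test between lines, and the test of the line difference itself called 3 of the 70 and 5 of the 54. Nxpe3 was among the latter (line difference 4.23, adjusted p = 0.0076). Its Ctrl stage changes also differed between the lines, at -0.47 in the Sox2 line and 2.01 in the Oct4 line, beside KO changes of 1.61 and -0.14.

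For some genes the genotype difference in stage change differed between the Sox2 and Oct4 lines. Such a difference can come from the KO embryos, the Ctrl embryos or both. The test of the line difference, the Sox2 line's genotype difference minus that of the Oct4 line, called 0.519% of all genes, 0.292% higher and 0.228% lower. Among the genes described here it called Fn1, Tdgf1, Pcsk6, Ldha, Tet1 and Cdc6, besides Nxpe3 and Naalad2. Fn1 stood at 6.36 to 26.8 CPM in the Oct4 line's Ctrl morulae and at 147 to 373 CPM in its Ctrl early ICMs, but at 1.11 to 15.4 CPM in Oct4 KO morulae and at 1.21 to 11.4 CPM in Oct4 KO early ICMs. Its genotype difference was -4.79 ± 0.50 in the Oct4 line and -0.30 ± 0.38 in the Sox2 line, and these differed by 4.49 ± 0.63 (adjusted p = 9.1e-07). Fibronectin thus reached 192 to 519 CPM without Sox2 and stayed at the level of morulae without Oct4.

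Tdgf1, a co-receptor of Nodal, rose without Sox2 from 26.8 to 62.2 CPM (median 46.7) to 60.3 to 170 CPM (median 122), by 1.34 ± 0.30. It fell by 2.41 ± 0.35 without Oct4, and the line difference was 3.65 ± 0.62 (adjusted p = 0.00011). Pcsk6, a protease that processes Nodal ligands, rose without Sox2 from 23.4 to 70.9 CPM (median 55.2) to 130 to 206 CPM (median 142), and had medians of 48.7 and 59.9 CPM without Oct4 (line difference 1.96 ± 0.45, adjusted p = 0.015, and 0.0766 with thinned counts). Ldha reached 35.4 to 209 CPM in Sox2 KO early ICMs and at most 1.22 CPM in Oct4 KO early ICMs, although its levels also differed between the lines' Ctrl early ICMs, with medians of 63.4 and 10.9 CPM (line difference 6.0 ± 1.5, adjusted p = 0.036). That call was lost without Sox2 Ctrl morula 17 (5.77, adjusted p = 0.0532). For Tet1 and Cdc6 the line difference was 1.32 ± 0.34 and 1.63 ± 0.42 (adjusted p = 0.044 for each), and the call was lost in 14 of the 32 cases of leaving out a single Sox2 embryo, for each gene, and with scaling by total UMIs alone (adjusted p = 0.0622 and 0.0542).

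The promoters of the genes that differed were read for the DNA core that Sox factors bind, since these genes moved together with genotype. The RefSeq promoter table, on GRCm38.p6, holds 250 bases before and 50 after each gene's start and had a promoter for 57 of the 70 and 38 of the 54 genes. The letters CATTGT, on either strand, were in 12.3% of the former, 10.5% of the latter, 9.16% of the 10094 tested genes with a promoter, and 14.3% of all 27025 genes in the table. The octamer ATGCAAAT was in none of the 57 and in 3 of the 38 (7.89%), against 1.7% of tested genes. The promoters of Utf1 and Cited2 are printed 5′ to 3′ as the leading pluripotency factor and a gene of opposite direction. Capitals mark the Sox core, which the Utf1 window (chr7:139943606-139943905, plus strand) lacks and the Cited2 window (chr10:17722978-17723277, plus strand) has at base 255.
Utf1: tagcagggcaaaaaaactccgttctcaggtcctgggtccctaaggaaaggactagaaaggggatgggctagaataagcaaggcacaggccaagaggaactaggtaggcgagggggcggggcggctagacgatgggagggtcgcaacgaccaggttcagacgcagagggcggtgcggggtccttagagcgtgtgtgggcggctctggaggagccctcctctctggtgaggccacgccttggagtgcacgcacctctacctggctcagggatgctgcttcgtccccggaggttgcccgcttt
Cited2: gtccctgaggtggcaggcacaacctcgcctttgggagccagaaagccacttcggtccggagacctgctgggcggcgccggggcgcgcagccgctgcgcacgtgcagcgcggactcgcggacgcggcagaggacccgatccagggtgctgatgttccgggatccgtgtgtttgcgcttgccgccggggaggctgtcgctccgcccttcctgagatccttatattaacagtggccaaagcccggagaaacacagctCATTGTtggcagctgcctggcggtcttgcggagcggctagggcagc
A match says only that these letters stand in the window, and a missing match says nothing of sites outside it. The paper describes an enhancer of Utf1 with a joint Oct4 and Sox2 motif, and that enhancer lies downstream of the printed window.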

How the data were processed

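Single morulae and ICMs were profiled by 3′ RNA-seq with UMIs. Per the study's methods and the labels, the authors extracted UMIs with UMI-tools, trimmed reads with Cutadapt, aligned them with TopHat2 to mm10 with GENCODE vM23, assigned them with featureCounts and derived transcript counts per gene with TRUmiCount. Versions and the strand setting of the counting are not given in the sources used here. The deposited tables hold these counts for 29022 genes and, from the authors' DESeq2 rlog transformation, log2 values, used here only as an alternative. ERCC spike-ins were not used.

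Counts of the 96 Ctrl and KO embryos of both lines and 3 stages, in 12 groups, were fitted together with edgeR 4.0.16 (TMM scaling, quasi-likelihood test, R 4.3.3) over the 14053 genes with a UMI in 0.5 or more of a stage's embryos, for any stage. The contrasts were KO early ICM minus KO morula, the same in Ctrl embryos, and their difference. Genes were called at a p below 0.05 after Benjamini-Hochberg adjustment together with a log2 fold change of 1 or more in size. Standard errors are the log2 fold change divided by the root of the F statistic, all intervals are exact 95% counting intervals, and the floor for a group without UMIs was 3 UMIs. These intervals come from UMIs pooled over a group and do not hold the variation between embryos. Positions use log2(CPM + 1). Replicates are separate embryos, and in 112 pairs within groups the chi-square per gene was at least 2.69, so none was counted as a repeat. Litters and batches are not given, so embryos may share them. On counts simulated under the fit's own model, most of the large changes planted were recovered in the KO stage change. Such counts do not probe departures from that model.

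Named genes were Sox2 and Pou5f1, the 10 highest and lowest KO stage changes and the 8 highest and lowest differences under the limits stated with them (1120 and 91 genes eligible, passing over predicted genes, clone names and pseudogenes), and examples from 21 gene lists. The 16 embryos, the lists and the rules were chosen with earlier results of these data known. Annotations are from GENCODE vM21. Alternatives were DESeq2 1.42.0, other scalings and filters, thinned counts, limma 3.58.1 on the log2 values, subsets of embryos and leaving out each of 32 Sox2 embryos. Maternal wild-type embryos were not used.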

Additional observations from a re-analysis of the deposited data

Results flagged for a closer look

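Single embryos that stood apart from the others of their group were looked for in the 16 Sox2 KO embryos, by comparing the gap between the farthest embryo and its neighbour with the whole range of the group. Of 216 sets of 8 values, nearly all a gene in a group and the rest embryo positions, 22 had a gap above 0.526 of the range. Normal values pass that limit about 1 time in 20. CPM need not be normal and rest on few UMIs for some genes, so the rate expected here is not known. Among early ICMs, embryo 11 held the highest values of 4 genes. It had 994 CPM of Krt8 against 428 in the next embryo, 644 CPM of Adh1 against 209.7, 16.1 CPM of Socs3 against 6.45 and 15.03 CPM of Pdzd3 against 7.12. Embryo 2 had 99.8 CPM of Klf2 against 61.2 and 10.4 CPM of Lin28b against 2.15. Embryo 1 had 206 CPM of Pcsk6 against 147 and 6.45 CPM of Slc6a14 against 3.22. The highest Lrp2 value, 136 CPM, came from embryo 17, where the next embryo had 76.1 CPM. Embryo 21 had 41.2 CPM of Gdf3 against 19.07, and embryo 8 had 4.75 CPM of Fgfr3 against 1.08.

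Among KO morulae, embryo 19 was highest for 4 genes. It had 408 CPM of Krt8 against 230.4, 377 CPM of Id2 against 207, 13.8 CPM of Srebf2 against 4.82 and 4.33 CPM of Syt9 against 1.83. Embryo 6 had 8.68 CPM of Upp1 against 3.67, 6.75 CPM of Tbx15 against 1.83 and 5.78 CPM of Meg3 against 2.60. Embryo 3 had the highest Cdx2 value, 58.3 CPM against 44.9, and the lowest Gmnn value, 248 CPM against 307.5 in its neighbour. The highest Fgf4 value was 19.97 CPM in embryo 4, against 11.3. Obsl1 was detected in embryo 9 alone, at 0.830 CPM.

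The genotype difference in stage change (KO minus Ctrl) also differed between the Sox2 and Oct4 lines for 8 of the genes described. On the log2 scale the Sox2 value exceeded the Oct4 value by 4.49 for Fn1, by 3.65 for Tdgf1, by 1.96 for Pcsk6, by 4.23 for Nxpe3, by 6.003 for Ldha, by 1.32 for Tet1 and by 1.63 for Cdc6. For Naalad2 the line difference was -3.595 (adjusted p = 0.00063 by edgeR's quasi-likelihood test).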

How the results depend on the processing

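Among the named and list genes, no called KO stage change, difference or line difference that was followed changed sign under any alternative. Nor did any median of the genes rising or falling in Oct4 Ctrl embryos. Other values of single genes, such as uncalled ones and Ctrl stage changes, were not followed in this way, apart from the KO stage change of Pou5f1. The median difference over all genes, -0.03, was 0.0009 with DESeq2, and the direction with more calls turned in some counts: the Oct4 Ctrl stage change had 2260 higher and 1831 lower with total UMIs alone, and KO against Ctrl early ICMs 266 and 238 with the 32 Sox2 embryos alone. For single genes, 8614 repeats without 1 embryo kept their side of the threshold and 218 lost it, and under the other settings 2243 kept it and 176 lost it. The median KO change of the genes falling in Oct4 Ctrl embryos was -1.08 with DESeq2, -1.10 with RLE factors and -1.27 with total UMIs alone. Counts thinned to the lowest total called 78 genes in the difference (40 higher and 38 lower) and 0 between morulae, and ended the difference calls of Capn6, Mlxipl, Upp1, Bcl3, Fgf4, Gdf3 and Fgfr2 (adjusted p = 0.0569 to 0.127) and the line difference calls of Pcsk6 and Tet1 (0.0766 and 0.114). Total UMIs alone ended the difference call of Fgfr2 (0.0567) and the line difference calls of Tet1 and Cdc6 (0.0622 and 0.0542), and limma those of Ldha and Cdc6 (0.0542 and 0.0589). Limma on the deposited log2 values, which are shrunken, called 2286 genes in the KO stage change, 140 in the difference (73 higher and 67 lower), 2248 in the Ctrl and 1935 in the Oct4 Ctrl stage change, 207 between the early ICMs and 439 between the late ICMs. Of the rising and falling Oct4 Ctrl genes it called 487 and 443 in KO embryos (medians 1.06 and -0.89), and 523 and 480 in Ctrl embryos (medians 1.14 and -0.96). Without a fold minimum 7299 and 7270 genes were called in KO and Ctrl embryos.

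Embryo numbers gave no pairing by the labels. The KO stages shared the numbers 2 and 21, whose embryos' deviations correlated by 0.11 and 0.0646 over 6157 genes. A fit with the replicate block, which used 18 block columns and had 10 residual degrees of freedom, called 2857 genes in the Ctrl stage change and 17 in the difference, 10 of them among the 124. It called 699 of the falling genes in Ctrl embryos, and the KO median of the rising genes was 1.47.

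Without 1 embryo at a time the KO stage change called 4422 to 4590 genes, the Ctrl stage change 4331 to 4591, the difference 91 to 131 (91 without Ctrl early ICM 11), the early ICMs 382 to 482 and the late ICMs 963 to 979. Between morulae the count was 0 without Ctrl morula 14 and 2 without Ctrl morula 7.

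At 775085 or more UMIs per KO embryo, genes near 1 CPM rest on about 1 UMI per embryo. Stage, MEK inhibitor culture and isolation of the ICM moved together in all embryos and cannot be told apart. Of 38 named genes, 15 overlap exons of another gene, and without a stated strand setting their counts are uncertain. List counts without KO early ICM 11 and positions with a pseudocount of 10 CPM were added after seeing the data.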
